A study of Mus musculus with 8 samples.

Results

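The 10 genes described here are the growth factor, receptors, receptor substrates and binding proteins of insulin-like growth factor (IGF) and insulin signalling that were read from adult mouse muscle: Igf1; Igf1r, Insr and Igf2r; Irs1 and Irs2; and Igfbp4, Igfbp5, Igfbp6 and Igfbp7. They were found by matching mouse Ensembl identifiers to these symbols, which gave 10 of the 23008 genes in the table, and all 10 passed the minimum level for testing. The tissue was gastrocnemius, the large calf muscle, of wildtype C57BL/6J mice, in 8 RNA libraries. Every mouse had been given AAV9, a viral vector that reaches muscle from the blood, with the GNDM construct for gene activation. The construct carried guide m31, directed at Lama1, in 4 libraries and a control guide with no target in the other 4. Muscle was collected 11 weeks after the tail vein injection, and the labels give the age at injection both as 7 weeks and as 7 to 12 weeks. Both groups thus carried vector and construct, and no muscle without them was analysed here. The labels do not tie each library to its own animal, so the spread between libraries may in part be technical.

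Reads in genes came to 34142447 to 39210248 per library, except in control replicates 3 and 4, which had 26188069 and 25157486. The 9 myofibre markers were present in every library and made up 13.4 to 15.2% of the normalised reads with m31 and 13.8 to 16.3% in controls. All 9 had negative estimates (median log2 difference -0.08, m31 minus control). Of these, Myh7 was lower with m31 without overlap between groups, as were 2.02% of all genes (log2 difference -0.64, limma's adjusted p = 0.698). Lama1, the targeted gene, stood at 86.5 (replicate 4) to 295 normalised reads with m31 and at 0 to 4.18 in controls, so no library went against its label. At limma's adjusted p under 0.05 over 15960 genes, the groups differed in 1 gene, Lama1, which is 0.00627% of the genes tested. With the control guide, replicate 3 had the highest level of the GNDM entry (37989 normalised reads), and with m31, replicate 4 had the lowest (6157). Both of these libraries are pointed out below where they set a value.

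IGF1 is a hormone and local growth factor that signals through a tyrosine kinase receptor, encoded by Igf1r, which is closely related to the insulin receptor, encoded by Insr. Both receptors pass the signal on through docking proteins, IRS1 and IRS2, to PI3 kinase and Akt, which in muscle promote glucose uptake, glycogen storage and protein synthesis and keep the FoxO factors of the atrophy programme out of the nucleus. The receptor encoded by Igf2r has no kinase and carries IGF2 and lysosomal enzymes into the cell, while the IGF binding proteins hold IGFs outside the cell and set how much of them can reach the receptor.

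The promoters of these genes differ in base composition and in motifs. Shown are 5 of them: both substrates, the IGF receptor and the binding proteins with the clearest separation between guides. RefSeq start sites on GRCm38.p6 were found for 9 of the 10 genes; Insr is named only. Each line gives the 150 bases before the start, 5′ to 3′ on the gene's strand, with capitals for the motifs searched on both strands: the GC box GGGCGG, the TATA box TATAAA, the FoxO site GTAAACA, the E box CACGTG and the letters TGTTTTG. The last 2 were added after the sequences had been seen, and in Irs1 an E box overlaps TGTTTTG, whereas in Irs2 they are separated by 1 base.

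Irs1 lies at chr1:82291440-82291589 (minus strand), Irs2 at chr8:11008930-11009079 (minus), Igf1r at chr7:67952107-67952256 (plus), Igfbp6 at chr15:102144036-102144185 (plus) and Igfbp7 at chr5:77408046-77408195 (minus).
Irs1: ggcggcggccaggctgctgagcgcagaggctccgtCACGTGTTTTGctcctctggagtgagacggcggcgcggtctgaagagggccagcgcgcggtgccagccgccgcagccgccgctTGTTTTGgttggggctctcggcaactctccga
Irs2: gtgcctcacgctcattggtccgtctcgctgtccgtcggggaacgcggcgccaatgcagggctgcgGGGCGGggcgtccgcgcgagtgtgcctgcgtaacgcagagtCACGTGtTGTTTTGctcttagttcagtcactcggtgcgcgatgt
Igf1r: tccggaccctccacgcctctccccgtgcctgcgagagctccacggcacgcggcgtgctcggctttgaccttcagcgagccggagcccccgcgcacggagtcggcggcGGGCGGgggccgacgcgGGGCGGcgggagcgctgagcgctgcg
Igfbp6: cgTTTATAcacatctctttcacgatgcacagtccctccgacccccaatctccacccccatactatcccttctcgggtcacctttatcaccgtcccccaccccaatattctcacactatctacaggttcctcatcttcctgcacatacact
Igfbp7: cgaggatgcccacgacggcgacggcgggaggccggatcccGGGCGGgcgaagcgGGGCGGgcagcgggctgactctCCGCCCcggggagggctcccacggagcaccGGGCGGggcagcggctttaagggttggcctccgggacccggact

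In these windows the longest run of letters common to Irs1 and Irs2 was GTCACGTGTT, 10 bases, which begins 117 bases before the start of Irs1 and 46 bases before that of Irs2. These distances hold for the RefSeq starts only, as GENCODE places some starts elsewhere. For Irs2, on the minus strand, the window begins at 11008930, whereas the GENCODE gene ends at 11008458. Over the full 250 bases before the start, an E box stood in 3 of the 9 promoters (Irs1, Irs2 and Igf2r), against 6.02% of 32851 mouse promoters. The letters TGTTTTG stood in Irs1 and Irs2, against 5.56%. A GC box was found in 5 of the 9 (Igf1r, Igf2r, Irs1, Irs2 and Igfbp7), against 32.7%. The TATA box letters stood in Igfbp4 and Igfbp6, against 12.4%. In Igfbp6 they are on the opposite strand, at the end of the printed window farthest from the start, so no TATA box promoter is claimed for it. The FoxO letters were in none of the 9 windows, against 3.17%, which says only that these letters are not within these bases. The share of G and C was 77.6% for Igf1r, 74% for Igfbp7, 72.8% for Irs2, 72.4% for Irs1, 69.2% for both Igf2r and Igfbp4, 58.8% for Igfbp5, 52.8% for Igf1 and 49.6% for Igfbp6, beside a median of 52.4% over all promoters. A match of letters is a description and was not linked to any binding here.

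None of the 10 genes passed limma's adjusted threshold. By unadjusted p under 0.05 there were 4: Irs1 and Igf1r, lower with m31, and Igfbp6 and Igfbp7, higher with m31; over all genes tested that share was 6.79%. The groups did not overlap for Igf1r, lower in all 4 m31 libraries (2.02% of all genes), or for Igfbp6, higher in all 4 (1.84% of all genes). Of the 10 estimates, 5 were positive and 5 negative: those of all receptors and substrates were negative, and those of Igf1 and all 4 binding proteins positive. The median difference over the 10 was 0.03 on the log2 scale, beside 0.01 over all genes tested. All differences in the text are m31 minus control, and those of limma are on the log2(value + 1) scale. Those of DESeq2 and edgeR come from the recovered reads, and those of ratios from log2 ratios of the values as they stand.

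**Figure D1:**
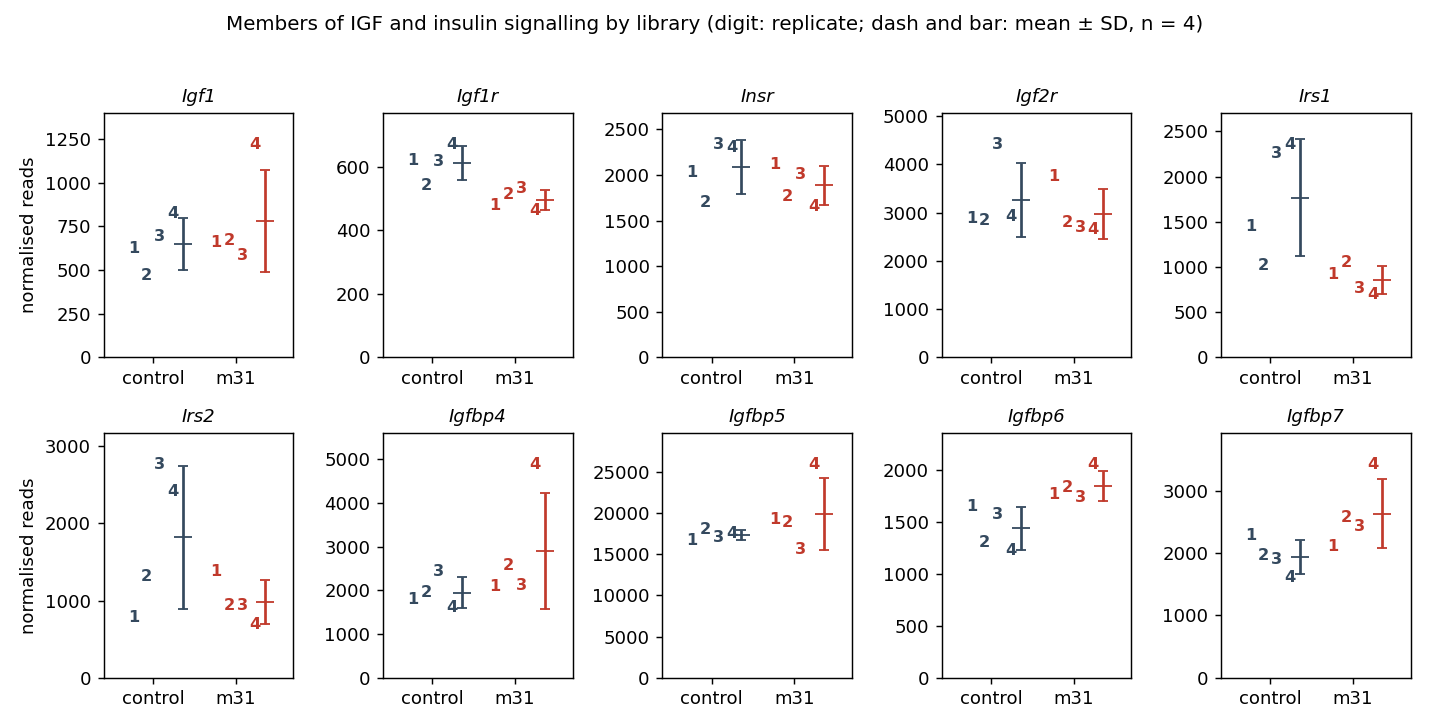
Normalised reads (vertical axis from 0) of the 10 genes in the 4 control and 4 m31 libraries; each digit is 1 library, named by its replicate number, and dash and bar give mean ± SD (n = 4). Igf1r and Igfbp6 show no overlap between groups, and m31 replicate 4 is the highest m31 library for Igf1 and every binding protein.

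**Figure D2:**
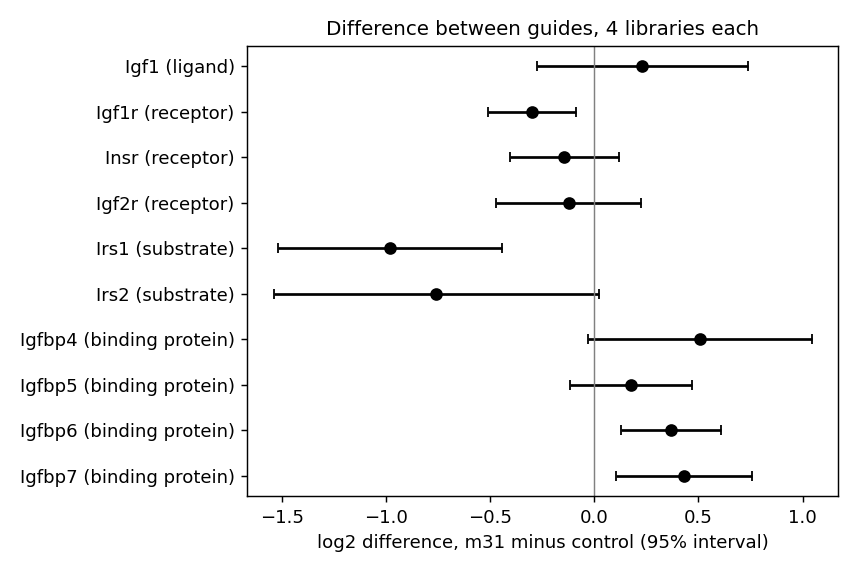
Log2 difference between guides for each gene (point) with its 95% interval (bar) from the limma fit over all genes, 4 libraries per group; 0 means no difference. The intervals of Igf1r, Irs1, Igfbp6 and Igfbp7 lie to one side of 0 before any adjustment for the number of genes tested.

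The substrate genes had the widest differences. IRS1 is the docking protein through which the insulin and IGF1 receptors reach PI3 kinase in muscle. Irs1 (ENSMUSG00000055980, GRCm38 chromosome 1, 82233101 to 82291416, minus strand) measured 921, 1050, 766 and 698 normalised reads in m31 replicates 1 to 4 and 1448, 1022, 2252 and 2353 in control replicates 1 to 4. The m31 libraries lay close together and low, and control replicates 3 and 4 were far above them. Control replicate 2 fell just below m31 replicate 2, so the groups overlapped by 1 library. Control replicates 3 and 4 also had the fewest reads in genes (26188069 and 25157486), and the part of depth in these values was not tested. Mean Irs1 with m31 was 859 ± 158 (SD, n = 4) against 1769 ± 642 in controls, or 48.5% of it. The log2 difference was -0.98 ± 0.24 (SE), with a 95% interval from -1.52 to -0.44 and limma's adjusted p = 0.627. DESeq2 on the recovered reads placed Irs1 past the threshold (log2 difference -1.04, adjusted p = 0.0176), the 1 member among the 31 genes (0.164% of 18960) that it called, whereas edgeR's quasi-likelihood test did not (log2 difference -1.04, adjusted p = 0.568). Leaving out any 1 library kept the limma estimate between -1.22 and -0.82. It was -0.71 when libraries were weighted by their quality, and -0.74 without m31 replicate 4 and control replicate 3.

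IRS2 is the related docking protein, whose gene is known to be switched on in fasting and down by insulin in liver. Irs2 (ENSMUSG00000038894, chromosome 8, 10984681 to 11008458, minus strand) had 1375, 939, 937 and 693 normalised reads in m31 replicates 1 to 4 and 786, 1307, 2759 and 2420 in control replicates 1 to 4. Only control replicates 3 and 4 stood above all m31 libraries, and control replicate 1 was lower than 3 of the 4. The log2 difference was -0.76 ± 0.35 (SE; 95% interval -1.54 to 0.02; adjusted p = 0.735). The estimate was -0.50 without control replicate 3 and -1.10 without control replicate 1. It was -0.27 when libraries were weighted by their quality, and -0.35 without m31 replicate 4 and control replicate 3.

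Taken per library, Irs1 and Irs2 together came to 1391 to 2296 normalised reads with m31 and to 2234, 2329, 5011 and 4773 in control replicates 1 to 4. Control replicates 1 and 2 thus lay at the upper end of the m31 range and control replicates 3 and 4 at more than its double. The ratio of Irs1 to Irs2 was 0.670, 1.12, 0.817 and 1.01 with m31 and 1.84, 0.782, 0.816 and 0.972 in controls. The exact two-sided permutation test on the log2 ratio gave p = 0.629 (0.629 after Benjamini-Hochberg adjustment over 3 ratios), with a mean difference of -0.22. Without control replicate 1, which had the highest ratio of reads (1.84, not corrected for gene length), that difference was 0.06. Irs1 shares exon bases with Gm9747 and Irs2 with 9530052E02Rik in GENCODE, and the strand setting of the counting is not given in the sources used here, so reads of these pairs cannot be told apart.

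**Figure D3:**
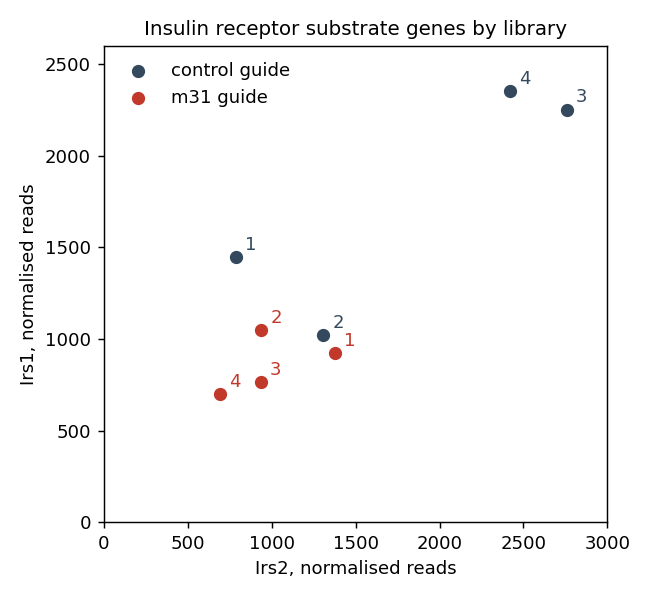
Irs1 (vertical axis) against Irs2 (horizontal axis), both in normalised reads, for each of the 8 libraries, labelled by replicate number. Control replicates 3 and 4 stand apart at the upper right, and the other 2 control libraries lie near the 4 m31 libraries.

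Of the receptors, Igf1r separated the groups. The IGF1 receptor gene (ENSMUSG00000005533, chromosome 7, 67952827 to 68233668, plus strand) had 479, 513, 532 and 463 normalised reads in m31 replicates 1 to 4 and 621, 541, 618 and 670 in control replicates 1 to 4. Every m31 library was below every control library, although the highest m31 and the lowest control value were close. The means were 497 ± 31.6 and 613 ± 53.5 (SD, n = 4 each), and the log2 difference was -0.30 ± 0.10 (SE; 95% interval -0.51 to -0.09; limma's adjusted p = 0.647). It stayed between -0.36 and -0.25 when any 1 library was left out.

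Insr, the insulin receptor gene (ENSMUSG00000005534, chromosome 8, 3122061 to 3279617, minus strand), had 2119, 1764, 2003 and 1656 normalised reads with m31 and 2031, 1695, 2333 and 2300 in controls. The groups overlapped over most of their range, with a log2 difference of -0.14 ± 0.12 (SE; 95% interval -0.41 to 0.12; adjusted p = 0.849). The interval spans both no difference and a difference as large as that of Igf1r, so the 2 receptors were not shown to differ in their response. The ratio of Igf1r to Insr reads was 0.226 to 0.291 with m31 and 0.265 to 0.319 in controls, a mean log2 ratio difference of -0.16 (exact two-sided permutation p = 0.200, 0.343 after adjustment over 3 ratios).

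Igf2r, which encodes the IGF2 and mannose 6-phosphate receptor (ENSMUSG00000023830, chromosome 17, 12682406 to 12769664, minus strand), lies on the same chromosome as Lama1. It had 3746, 2794, 2697 and 2645 normalised reads in m31 replicates 1 to 4 and 2872, 2834, 4407 and 2922 in control replicates 1 to 4. One library per group was high, and the other 6 lay between 2645 and 2922. The log2 difference of -0.12 ± 0.16 (SE; 95% interval -0.47 to 0.23; adjusted p = 0.904) turned to 0.03 without control replicate 3. The antisense RNA gene Airn overlaps it in the annotation without sharing exon bases.

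Igf1, the ligand (ENSMUSG00000020053, chromosome 10, 87858265 to 87937042, plus strand), is made in muscle by fibres, stromal cells and macrophages. It measured 657, 668, 586 and 1218 normalised reads in m31 replicates 1 to 4 and 621, 468, 690 and 822 in control replicates 1 to 4. The library of m31 replicate 4 was far above all others, and the remaining m31 libraries lay inside the control range. The log2 difference was 0.23 ± 0.23 (SE; 95% interval -0.27 to 0.74; adjusted p = 0.880), and without m31 replicate 4 it was -0.0033. In the same library the 10 macrophage markers summed to 9606 normalised reads, beside 3982 to 4903 for the remaining m31 replicates and 2898 to 6802 for controls. The 6802 was that of control replicate 3, where Igf1 was 690. Marker sums of tendon cells (29393) and of fibro-adipogenic progenitors (28290) were also highest in m31 replicate 4. The part of these cells in the Igf1 value was not tested. All 10 macrophage markers had positive estimates (median log2 difference 0.47), none with an unadjusted p under 0.05, and all were detected in every library. Library m31 replicate 4 also had the highest level of every binding protein. Its Lama1 was the lowest of the m31 libraries, at 86.5 normalised reads beside 209 to 295 in the others. In whole muscle, fewer cells of a type and less RNA per cell cannot be told apart.

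The binding proteins had the highest mean levels per length of the 10 genes. IGFBP5, the main IGF binding protein of muscle, binds IGFs and matrix. Igfbp5 (ENSMUSG00000026185, chromosome 1, 72857932 to 72874884, minus strand) had 19267, 18888, 15540 and 25880 normalised reads in m31 replicates 1 to 4 and 16680, 18018, 17078 and 17532 in control replicates 1 to 4. The control libraries were tightly grouped, and the m31 libraries lay on both sides of them. Its log2 difference was 0.18 ± 0.13 (SE; 95% interval -0.12 to 0.47; adjusted p = 0.840), and 0.04 without m31 replicate 4.

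Igfbp6 (ENSMUSG00000023046, chromosome 15, 102144362 to 102149511, plus strand) encodes the binding protein that prefers IGF2 over IGF1. It had 1759, 1828, 1728 and 2046 normalised reads with m31 and 1648, 1296, 1567 and 1226 in controls. Each m31 library was above each control library, with the closest values 1728 and 1648. The means were 1840 ± 143 and 1434 ± 205 (SD, n = 4 each), a log2 difference of 0.37 ± 0.11 (SE; 95% interval 0.13 to 0.61; limma's adjusted p = 0.647), and the estimate was 0.30 to 0.44 when any 1 library was left out.

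Igfbp7 (ENSMUSG00000036256, chromosome 5, 77349240 to 77408041, minus strand) encodes a secreted relative of the family that binds IGFs only weakly and is made by vessels and stroma. It had 2112, 2575, 2433 and 3421 normalised reads in m31 replicates 1 to 4 and 2289, 1964, 1891 and 1611 in control replicates 1 to 4. Only m31 replicate 1 fell below control replicate 1, and the other 3 m31 libraries were above all control libraries. For Igfbp7 the log2 difference was 0.43 ± 0.15 (SE; 95% interval 0.10 to 0.76; adjusted p = 0.685), and 0.30 without m31 replicate 4. An exon of Polr2b shares bases with Igfbp7 in the annotation, so some reads could belong to either gene.

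Igfbp4 (ENSMUSG00000017493, chromosome 11, 99041244 to 99054392, plus strand) encodes a binding protein that inhibits IGF action until it is cut by the protease PAPP-A. It had 2085, 2570, 2105 and 4868 normalised reads in m31 replicates 1 to 4 and 1782, 1949, 2429 and 1598 in control replicates 1 to 4. Again m31 replicate 4 was the highest, at nearly the double of the next library. For Igfbp4 the log2 difference was 0.51 ± 0.24 (SE; 95% interval -0.03 to 1.04; adjusted p = 0.747), and 0.23 without that library. The ratio of Igfbp5 to Igfbp4 reads was 9.24, 7.35, 7.38 and 5.32 with m31 and 9.36, 9.25, 7.03 and 11.0 in controls (mean log2 ratio difference -0.33, exact two-sided permutation p = 0.229, 0.343 after adjustment over 3 ratios).

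The levels of connective tissue and vessel cell markers are given beside those of the binding proteins, and none of these markers passed limma's threshold. The 7 tenocyte markers, genes of tendon cells, all had positive estimates, and their summed level was 12158, 19741, 19798 and 29393 normalised reads in m31 replicates 1 to 4 against 12871, 9216, 14854 and 7408 in control replicates 1 to 4. Of 8 markers of fibro-adipogenic progenitors, the stromal cells of muscle, 7 had positive estimates, with sums of 17955 to 28290 with m31 and 17318 to 27204 in controls. Of 9 tested pericyte and smooth muscle markers, 7 had positive estimates (median log2 difference 0.29). Of these, 4 (Pdgfrb, Notch3, Cnn1 and Cspg4) had an unadjusted p under 0.05, as did 6.79% of all genes in either direction. Pdgfrb was higher with m31 without overlap, as were 1.84% of all genes. The list of 10 summed to 23046 to 26684 with m31 and 23199 to 25907 in controls. Of 9 endothelial markers, 7 had positive estimates (median 0.07), with sums of 11650 to 14001 and 11781 to 13091. The medians of the tenocyte and progenitor lists were 0.73 and 0.20. An unadjusted p under 0.05 was found for 4 tenocyte and 2 progenitor markers, beside 6.79% of all genes. Replicate 1 was the lowest m31 library, and control replicate 4 the lowest control library, both for the tenocyte sum and for Igfbp7. The rest of the control order differed: the highest control library was replicate 3 for the tenocyte sum and replicate 1 for Igfbp7. None of these marker genes was at 0 in any library, and their part in the binding protein values was not tested.

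Levels can be set side by side only per length. Per kilobase of annotated exon (all isoforms merged), Igfbp5 was highest with 2885 ± 96.1 normalised reads in controls (mean ± SD, n = 4), followed by Igfbp7 (1604 ± 231), Igfbp6 (1290 ± 184) and Igfbp4 (439 ± 80.7). Then came Igf2r (350 ± 82.3), Irs2 (288 ± 147), Irs1 (193 ± 70.2), Insr (152 ± 21.5) and Igf1 (65.7 ± 14.9), and Igf1r was lowest at 36.5 ± 3.18. With both guides pooled, neighbours in this order overlapped in their range over the 8 libraries, except Igf1 and Igf1r. For Igfbp6 and Igfbp4 the ranges only touched, with the lowest Igfbp6 and the highest Igfbp4 value both at 1102. Within every single library, Igfbp5, Igfbp7, Igfbp6 and Igfbp4 stood in this order. With m31 the order was the same apart from Insr (137 ± 15.5), which stood above Irs1 (93.9 ± 17.3). Igfbp5 made up 39.02 to 45.8% of the 4 binding proteins per length with m31 and 42.4 to 51.1% in controls.

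**Figure D4:**
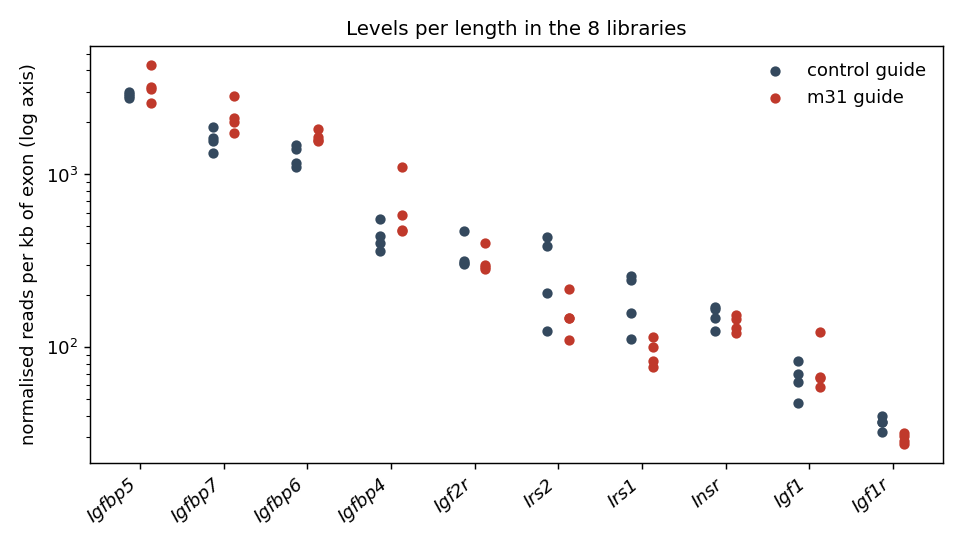
Normalised reads per kilobase of annotated exon (log axis) for the 10 genes, each point 1 library, ordered by the control mean. The binding proteins lie at the top and Igf1 and Igf1r at the bottom; Irs1 and Irs2 spread widest among the control libraries.

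The other genes of the pathway, 72 in 7 lists, were taken from the same fit. Of the 69 tested, 0 passed limma's threshold in either direction and 8 had an unadjusted p under 0.05 (6.79% of all genes did), 3 of them higher and 5 lower with m31. Groups did not overlap for 3 higher genes (Ptpn1, Shc1 and Akt1, beside 1.84% of all genes) and 2 lower genes (Ghr and Foxo3, beside 2.02%). Their median log2 difference was -0.02. By edgeR 0 of 69 passed. By DESeq2 1 of 71 did, Ptpn1, beside 0.164% of all 18960 genes with an adjusted p.

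Upstream of Igf1, growth hormone acts through its receptor, Jak2 and Stat5. Ghr, the growth hormone receptor gene, had 3037, 3504, 3398 and 3364 normalised reads in m31 replicates 1 to 4 and 4165, 4010, 3671 and 4455 in control replicates 1 to 4, so that, as for Igf1r, all m31 libraries lay below all control libraries. Its log2 difference was -0.29 ± 0.08 (SE, adjusted p = 0.647). Socs2, a feedback inhibitor that Stat5 switches on, had 543 ± 229 with m31 and 1010 ± 420 in controls (SD, n = 4 each; log2 difference -0.88, adjusted p = 0.705), and Stat5a had a log2 difference of 0.21. Of the 6 genes of this axis, 4 had negative estimates, with a median of -0.20.

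Of the 10 other ligand and binding protein genes, 7 were tested, 4 of them with positive estimates, a median log2 difference of 0.16 and no unadjusted p under 0.05. Igfbp3 (log2 difference 0.20), the main carrier of IGFs in blood, Igfals (-0.17), its partner in the serum complex, and Htra1 (0.17), a protease that cuts binding proteins, came first by p. Igf2, the second ligand, was low, at 19.0 to 56.9 normalised reads with m31 and 16.0 to 41.6 in controls. Igfbp2 and Pappa2 had a mean below 10 and were not tested, and Igfbp1 was not analysed here.

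Among 12 receptor adaptors and brakes, 6 estimates were positive and 6 negative (median 0.00). Ptpn1, the tyrosine phosphatase PTP1B that takes phosphate off the insulin receptor, had 890, 929, 1025 and 994 normalised reads in m31 replicates 1 to 4 and 666, 741, 697 and 678 in control replicates 1 to 4. All m31 libraries were well above all control libraries. The log2 difference was 0.46 ± 0.08 (SE), with limma's adjusted p = 0.288, edgeR's 0.291 and DESeq2's 0.0023. Shc1, an adaptor that leads to the Ras pathway, had a log2 difference of 0.26 (adjusted p = 0.720), and Grb10, an adaptor that restrains both receptors, of -0.44 (adjusted p = 0.781), with 1726 normalised reads in control replicate 3 against 636 to 1087 in the others.

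Of 13 PI3 kinase and Akt genes, 8 had positive estimates (median 0.03). Akt1, a kinase at the centre of the pathway, had 1989, 2169, 2255 and 2154 normalised reads with m31 and 1667, 1881, 1775 and 1595 in controls, again without overlap (log2 difference 0.31 ± 0.08 SE, adjusted p = 0.627). The regulatory subunit genes Pik3r2 and Pik3r1 had log2 differences of 0.24 and -0.09. Of the 11 mTORC1 and translation genes, 8 had negative estimates (median -0.03); Deptor (-0.21), Tsc1 (-0.08) and Rictor (-0.08) had the smallest p, and none was under 0.05 unadjusted.

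In the glucose uptake and glycogen list, 5 of 10 estimates were positive (median -0.01). Tbc1d4, which encodes the Akt substrate that releases glucose transporter vesicles, had 1245 ± 175 normalised reads with m31 and 1482 ± 85.8 in controls (SD, n = 4 each; log2 difference -0.26, adjusted p = 0.720), the hexokinase gene Hk2 a difference of 0.18 and Ppp1r3a, a glycogen-targeting subunit, of -0.12. Of 10 FoxO genes and targets, 7 had negative estimates (median -0.09). Fbxo32, the atrophy ligase gene, had a log2 difference of -0.38 (adjusted p = 0.705), Foxo3 of -0.19 (855 ± 65.9 against 977 ± 20.1 normalised reads, SD, n = 4 each) and Foxo1 of -0.22.

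**Figure D5:**
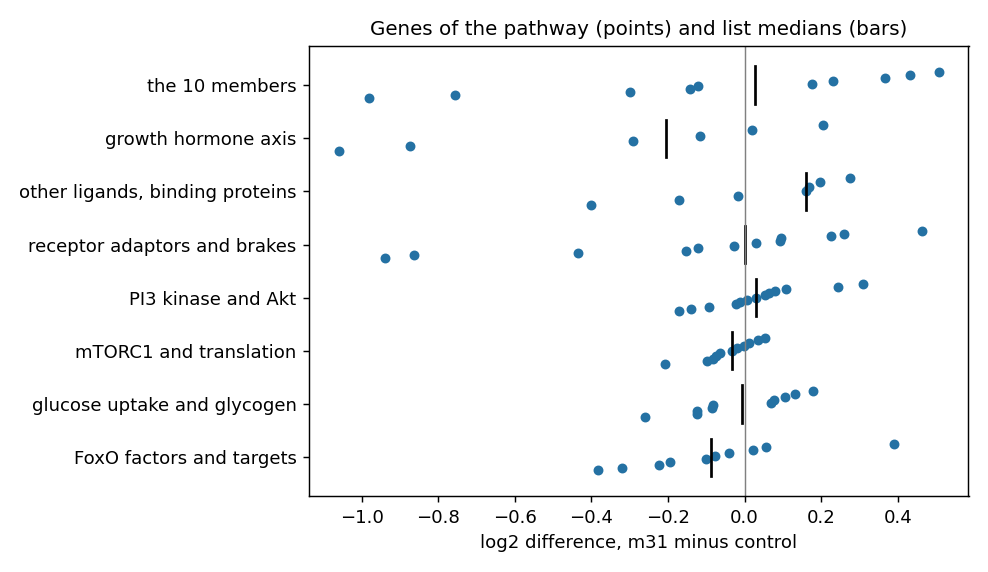
Log2 difference between guides (horizontal axis) of the 10 members and of the tested genes of 7 pathway lists, 1 point per gene, with the median of each list as a bar. Most list medians lie within 0.1 of 0, apart from the growth hormone axis (-0.20) and the other ligands and binding proteins (0.16).

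For each gene the 3 tested genes with the most similar pattern over the 8 libraries were listed, by Pearson's r of the log2 values, as a description. They were Kdelc2, Dnm3os and Trove2 for Igf1 (r = 0.97 to 0.98); Gt(ROSA)26Sor, Pdcl3 and Itgb1bp1 for Igf1r (0.97 to 0.98); 1110019D14Rik, Tead1 and Cstf3 for Insr (0.97 to 0.98); and Usp4, Ckap5 and Mpdz for Igf2r (0.98 to 0.99). For Irs1 they were Cebpz, Eif3j2 and Gm44021 (0.98), and for Irs2 Zkscan3, 5730419F03Rik and Orc3 (0.95 to 0.96). For the binding proteins they were Cmtm3, Grn and Olfml2b (Igfbp4, 0.98 to 0.99); Htra1, Mov10 and Clic6 (Igfbp5, 0.95 to 0.98); Faim2, Ebf1 and Col8a2 (Igfbp6, 0.96 to 0.99); and Lrig3, Rragb and Scarf2 (Igfbp7, 0.97). Without the 2 libraries farthest from the gene's median, r was 0.97 to 0.98 for Igf1r, 0.95 to 0.98 for Insr, 0.95 to 0.96 for Irs1, 0.89 to 0.92 for Igfbp4, 0.86 to 0.93 for Igfbp6, 0.84 to 0.91 for Igfbp7 and 0.83 to 0.87 for Irs2. It was 0.77 to 0.98 for Igf2r, 0.72 to 0.84 for Igf1 and 0.46 to 0.91 for Igfbp5, the widest span. The best of 15960 genes over 8 libraries is high by selection, and group membership is part of each pattern.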

How the data were processed

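The authors deposited 1 table of size-factor-normalised read signal, that is, reads per gene divided by 1 factor per library; STAR and DESeq2 are named, without versions, per the submitters' processing notes. Human build GRCh38.p12 appears in those notes although the identifiers are of mouse; the sources used here give no counting program, strand setting or annotation. Group and replicate came from the sample titles. Of 11 value columns, 8 match the labels and 3 were not used. The 5 construct entries stayed out of the tests. Gene symbols were matched for 22979 of 23008 genes; coordinates and exon lengths are from GENCODE M21 (GRCm38), promoters from RefSeq (GRCm38.p6).

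Every value was a whole multiple of what 1 read is worth (100% within 0.01 of a read), which gave read counts; the members had at least 491 reads in each library, so the spread between libraries limits precision. Replicates differed by 13.0 to 52.2 chi-square units per degree of freedom, so none was the same library read again. Whether libraries share an animal cannot be told from this. The test was limma 3.58.1 (R 4.3.3, with a trend of variance on level) applied to log2(value + 1) in all 8 libraries, over 15960 genes whose mean reached 10. P-values were adjusted by Benjamini-Hochberg over all of them, threshold 0.05; fold changes of low genes depend on the pseudocount. Ratios were compared by exact permutation over 70 arrangements (scipy 1.17.1, smallest possible p = 0.0286). After adjustment over the 3 ratios, a single ratio at that smallest p could not pass 0.05 by itself. edgeR 4.0.16 and DESeq2 1.42.0 were run on the recovered reads as alternatives; DESeq2 gave no adjusted p for 4014 genes. The scripts were tested on simulated data.

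The members and lists were chosen with earlier results of these data known. Named are Lama1, all members, the 3 genes of each pathway list with the smallest p, and the 3 genes most similar to each member; Igf2, Cish and Socs3 were picked out besides, with their values in view. The 10 marker lists cover fibres, stroma, tendon, macrophages, vessels, nerve, satellite cells, fat and blood; those not printed in the results are given in the closing section. Other alternatives were leaving out each library, a replicate block, other minimum levels, pseudocounts and scalings, and library weights; leaving out 2 libraries together was added after seeing the data.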

Additional observations from a re-analysis of the deposited data

Results flagged for a closer look

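In groups of 4 libraries, a value was singled out when its gap to the nearest other library exceeded, as a share of the group's range, Dixon's 95% critical value; this was so in 5 of 76 groups checked, where chance gives about 1 in 20. Igf1 stood at 1218 normalised reads in m31 replicate 4, with the next library at 668. Igf2r stood at 3746 in m31 replicate 1 (next 2794) and at 4407 in control replicate 3 (next 2922). Igfals stood at 209 in control replicate 4 (next 146). Shc1 was low in control replicate 4, at 601 (next 709).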

How the results depend on the processing

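Of 190 estimates (10 genes under 19 alternatives), 186 kept their direction and their side of the threshold. Irs1 passed with DESeq2, which called 22 genes higher and 9 lower (0.164% of 18960), 1 member and 1 pathway gene. Without m31 replicate 4 and control replicate 3, 3 genes were higher past the threshold, and Igf2r had a difference of 0.0823. Leaving out 1 library gave 0 to 1 lower genes, differences of -0.0033 (without m31 replicate 4) to 0.35 for Igf1 and -0.24 to 0.0316 (without control replicate 3) for Igf2r, and an Irs1 to Irs2 log2 ratio difference of -0.36 to 0.0551 (without control replicate 1); for these changes the cause was not tested. With 3 against 4 libraries the exact test cannot reach 0.05. Under limma's alternatives the smallest adjusted p among the members ranged from 0.208 (library weights) to 0.985 (without m31 replicate 2). With the replicate number as a block Irs1 had the same difference, -0.98, with an adjusted p of 0.883, and no call changed. Same-numbered libraries did not deviate together (correlations of 0.05, -0.05, -0.13 and -0.18), so the numbers are not taken as pairs. Recentring on library medians moved the median of all genes to -0.03. The size of each difference rests on 4 libraries per group.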

Other observations

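Beside the genes described above, markers of other cells differed in level between libraries. All 9 Schwann cell markers had negative estimates (median log2 difference -0.34), with sums of 5299 to 7816 normalised reads with m31 and 5706 to 10447 in controls. The 5 satellite cell markers summed to 964 to 1144 and 917 to 1073, and the 7 adipocyte markers to 5231 to 6343 and 5086 to 6246. The blood and lymphocyte list, led by haemoglobin genes, summed to 4971 to 9207 and 4814 to 18578; 4 of its 7 genes were tested, 3 with negative estimates.

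Cish and Socs3, feedback inhibitors of cytokine and growth hormone receptors, were chosen with their values in view. Cish ranged from 60.8 to 1343 normalised reads with m31 and from 129 to 1826 in controls. Socs3 had 536 and 640 in control replicates 3 and 4, the libraries with the highest Irs1 and Irs2, and 63.0 to 220 in the other 6. For neither was limma's adjusted p past the threshold (0.851 and 0.840).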
